A study of Rattus norvegicus with 9 samples.

Results

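Gene expression in the medial prefrontal cortex was compared between rats given K4, a compound known here only by its code name, and untreated rats. The comparison used the 3 K4 and 3 Control libraries of a series of 9, and every gene with adequate counts, which was 18047 of the 37991 genes in the count table. All rats were of the Wistar Kyoto strain, an inbred line studied for depression-like behaviour, and all tissue was labelled day 15. The K4 rats received the compound through an intravenous cannula for 7 days and then went 7 days without it. The Control rats received nothing, so the effects of the cannula, of handling and of K4 itself cannot be told apart. A further group of 3 libraries came from rats given ketamine, a channel blocker of the NMDA glutamate receptor, under the skin on the same schedule. The labels give no dose, age, sex or hour of dissection, and they do not say whether each library came from its own animal, so p-values measure only the spread between these libraries.

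The medial prefrontal cortex is a layered sheet of excitatory neurons with inhibitory interneurons, glia and blood vessels. Its upper-layer neurons mostly project to other cortex, and its deep-layer neurons project to the thalamus, the brainstem and the spinal cord. Its cells carry circadian clocks, in which the CLOCK and BMAL1 proteins drive the Per, Cry, Rev-erb and Dbp genes and are held back in turn by their products. Bulk tissue was sequenced here, so fewer cells of a type and less RNA per cell cannot be told apart.

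Library totals were 40863756 to 42731004 counts in Control and 28495399 to 32735785 in K4, so every Control library was deeper than every K4 library. The 13 mitochondrially encoded protein genes took 11.6% to 19.0% of counts in Control, the highest being Control replicate 2, and 10.4% to 11.4% in K4 (difference −4.23 percentage points, exact two-sided permutation p = 0.1, the smallest possible with 3 against 3), and the difference was −2.28 points without Control replicate 2. Cortical neuron markers of upper and deep layers were detected throughout, and of 14 choroid plexus and ependyma markers 4 had no count in these libraries and the 9 tested summed to 10.04 to 12.7 CPM in Control and 12.4 to 14.8 in K4.

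Across the 18047 genes, 1095 (6.07%) differed between K4 and Control at an adjusted p below 0.05 (edgeR quasi-likelihood test with Benjamini-Hochberg adjustment over all genes tested, the rule for every call below). Of these, 409 were higher (2.27%) and 686 lower (3.8%) after K4. The split followed transcript length. In the tenth of genes with the shortest transcripts (median 0.847 kb, from deposited counts over FPKM) the median log2 fold change was 0.13, with 80 genes higher and 14 lower. In the tenth with the longest (median 8.60 kb) it was −0.15, with 10 higher and 299 lower. The slope of log2 CPM on log2 length, taken on deviations from each gene's mean, lay between 0.043 and 0.070 in Control and between −0.020 and 0.002 in K4, without overlap (difference −0.067, exact two-sided permutation p = 0.1).

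**Figure D1:**
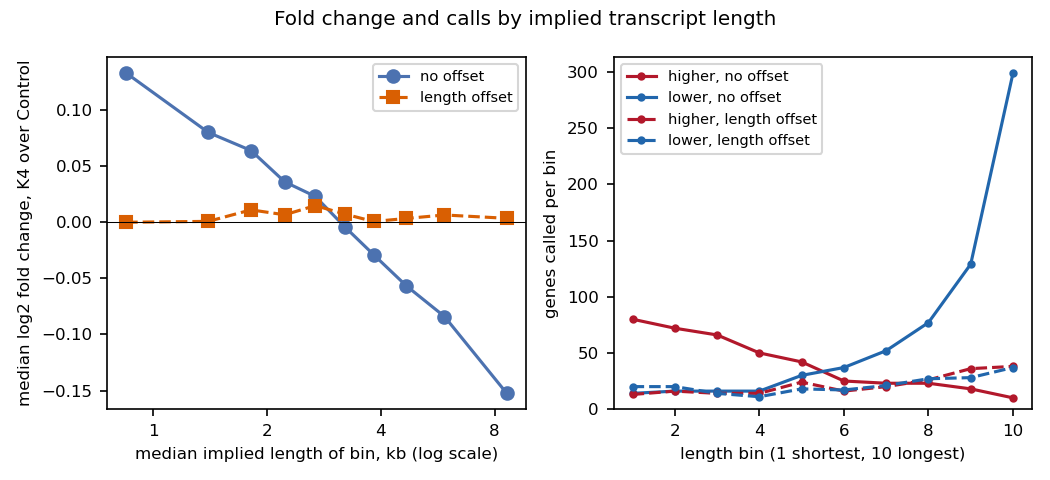
Left, median log2 fold change of K4 over Control in 10 bins of genes ordered by implied transcript length (log scale), without and with a per-library length offset. Right, the number of genes called higher (red) and lower (blue) in each bin. Without the offset the medians run from 0.13 to −0.15 and the longest bin holds 299 genes called lower, and with it 38 higher and 37 lower.

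A second fit therefore carried a length offset for each library. It called 430 genes (2.38%), 217 higher (1.2%) and 213 lower (1.18%), and 363 genes (2.01%) were called in the same direction in both fits. These 363 comprised 162 genes higher (0.898% of those tested) and 201 lower (1.11%), with a median absolute log2 fold change of 0.46. Of them 105 changed more than 1.5-fold (44 higher, 61 lower) and 28 more than 2-fold. In all 363 the 3 K4 values lay outside the range of the 3 Control values, as they did in 27.5% of all genes tested. Separate groups in any of these 363 therefore add nothing to the call. The number called in both fits depended on single libraries. It was 29, 679 and 972 without Control replicate 1, 2 and 3, and 31, 84 and 46 without K4 replicate 1, 2 and 3. It was 257, 190 and 191 without Ketamine replicate 1, 2 and 3, which enter through the shared estimate of spread. The 1095 genes of the first fit became 174, 1548 and 1528 without each Control library in turn and 239, 346 and 228 without each K4 library.

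**Figure D2:**
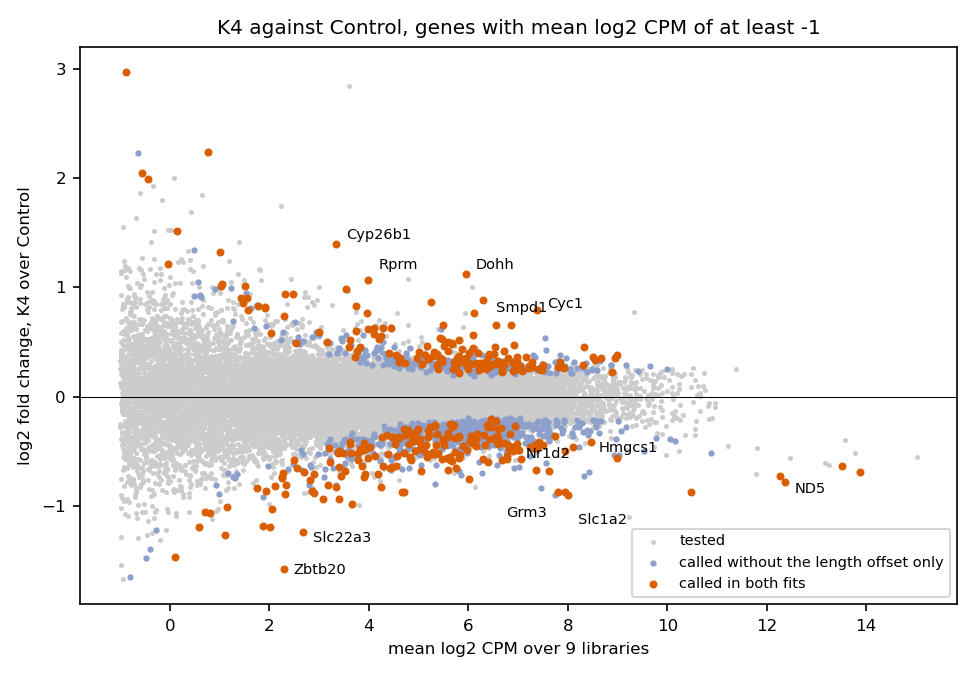
Log2 fold change of K4 over Control against mean log2 CPM over all 9 libraries for 16728 genes; 1316 genes below a mean log2 CPM of −1 and 3 with an absolute log2 fold change above 3 are not drawn. Grey points are tested genes, blue points were called only without the length offset, and orange points (363 in all) were called in both fits; Cyp26b1 and Zbtb20 are labelled at 1.40 and −1.57.

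A set of 21 genes was called in both fits and in all 18 refits that left out 1 library from either fit. The set was picked after its values were seen, and 9 of its members were higher and 12 lower after K4. Values below are given for replicates 1 to 3 in order. For genes outside this set, a call said to hold or to be lost without a library is that of the fit without the length offset. Cyp26b1 (gene ID 312495), the enzyme that clears retinoic acid in brain, had 7.95, 5.98 and 6.21 CPM in Control and 22.1, 15.6 and 15.4 CPM in K4 (log2 fold change 1.40 with SE 0.16, edgeR adjusted p = 0.00268). Every K4 library lay far above the highest Control library, and K4 replicate 1 was the highest. Dohh (gene ID 314644), which completes the hypusine residue of the translation factor eIF5A, had 33.5, 34.1 and 45.4 CPM in Control and 94.4, 78.9 and 72.6 CPM in K4 (log2 fold change 1.12 with SE 0.13, edgeR adjusted p = 0.00268). Cyc1 (gene ID 300047), the cytochrome c1 subunit of respiratory complex III, had 119, 115 and 127 CPM in Control and 246, 198 and 182 CPM in K4 (log2 fold change 0.79 with SE 0.096, edgeR adjusted p = 0.00268). For both genes K4 replicate 1 was the highest library and the groups were far apart.

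Smpd1 (gene ID 308909), the lysosomal acid sphingomyelinase that splits sphingomyelin into ceramide, had 89.3, 89.5 and 94.4 CPM in Control and 159, 147 and 125 CPM in K4 (log2 fold change 0.66 with SE 0.084, edgeR adjusted p = 0.00268). Sorcs3 (gene ID 294043), a sorting receptor of the postsynaptic side of synapses, had 34.97, 30.4 and 34.1 CPM in Control and 52.01, 52.6 and 51.9 CPM in K4 (log2 fold change 0.65 with SE 0.072, edgeR adjusted p = 0.00268). Its K4 values were nearly equal to each other. The membrane transporter Slc4a11 had 6.89, 9.05 and 7.07 CPM in Control and 15.1, 14.6 and 15.8 CPM in K4 (log2 fold change 0.98 with SE 0.14, edgeR adjusted p = 0.00420). Serinc2, of the serine incorporator family, and Lhfp, a tetraspan membrane protein, were higher by log2 0.77 and 0.50. Gfy, a Golgi protein known from olfactory neurons, had only 0.266, 0.572 and 0.965 CPM in Control and 2.76, 2.72 and 3.07 CPM in K4, and its log2 fold change of 2.24 (95% interval 1.55 to 2.93) has a wide interval because the counts were low. Of 5 olfactory markers tested, 2 were higher in both fits, Gfy and Cdhr1, beside 0.898% of all genes. Values were positive for 4 and negative for 1. The summed olfactory markers were 119 to 146 CPM in Control and 148 to 152 in K4. The part of dissection in these values was not tested.

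The 12 genes that were lower in all of these fits included signalling proteins and synaptic scaffolds. Grm3 (gene ID 24416), the metabotropic glutamate receptor mGlu3 of neurons and astrocytes, had 394, 451 and 359 CPM in Control and 221, 228 and 208 CPM in K4 (log2 fold change −0.87 with SE 0.1, edgeR adjusted p = 0.00268). All 3 K4 libraries lay well below the lowest Control library. Taok1, a kinase upstream of stress-activated MAP kinases, had 72.02, 72.4 and 75.3 CPM in Control and 50.8, 47.7 and 47.7 CPM in K4 (log2 fold change −0.59 with SE 0.085, edgeR adjusted p = 0.00464).

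Cask, a membrane-associated guanylate kinase scaffold of synapses, had 50.1, 50.1 and 50.98 CPM in Control and 37.6, 34.2 and 34.7 CPM in K4 (log2 fold change −0.51 with SE 0.069, edgeR adjusted p = 0.00332). Cadm2, a synaptic adhesion molecule, had 42.1, 41.4 and 43.98 CPM in Control and 30.99, 31.2 and 31.6 CPM in K4 (log2 fold change −0.44 with SE 0.068, edgeR adjusted p = 0.00552). In both genes the values within a group differed by little beside the gap between groups. Med13, a subunit of the Mediator kinase module, fell by 0.56 on the log2 scale and Pura, a nucleic acid binding protein of neurons, by 0.65. Ogfrl1 and the uncharacterised LOC103690031 fell by 0.58 and 0.88, and the clock genes Nr1d2 and Dbp, described below, were also in the set. Pura and Grm3 have long implied transcripts of 11.6 and 10.6 kb, and with the length offset their log2 fold changes were −0.47 and −0.70.

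**Figure D3:**
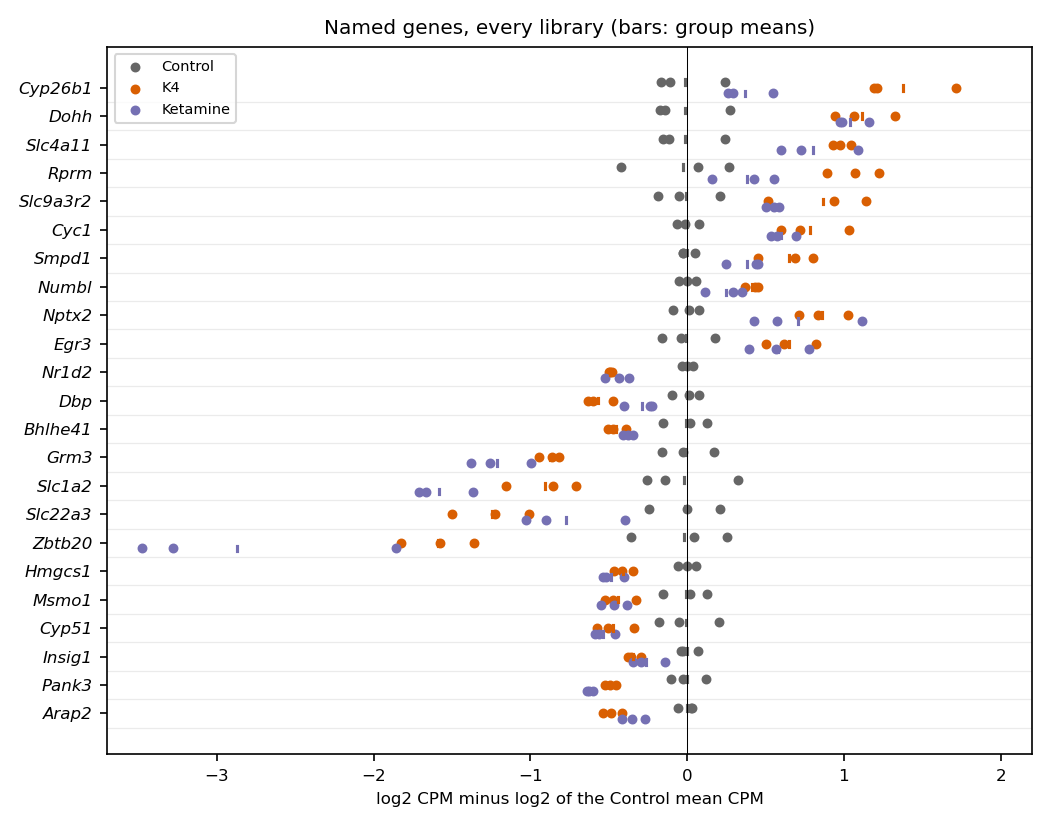
Log2 CPM of each library minus the log2 of the Control mean for 23 named genes, with Control in grey, K4 in orange and Ketamine in purple; short bars mark group means. In every gene shown the K4 points lie apart from the Control points, as in all 363 genes called in both fits. The log2 fold change is 1.40 for Cyp26b1 and −0.87 for Grm3.

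Among genes called in both fits and expressed above a mean log2 CPM of 1, the largest rises after Cyp26b1 and Dohh were in Rprm, a cell cycle inhibitor of deep-layer neurons, and in Myl4, LOC102549714, Cbr3 and Slc4a11. Cbr3, a carbonyl reductase, was higher by 1.01 (95% interval 0.54 to 1.48) on the log2 scale, and lost its call without Control replicate 1, K4 replicate 1 or K4 replicate 2. Slc9a3r2 (gene ID 116501), a PDZ scaffold also known as NHERF2, had 49.9, 65.5 and 54.6 CPM in Control and 125, 109 and 80.98 CPM in K4 (log2 fold change 0.89 with SE 0.14, edgeR adjusted p = 0.0104). Its lowest K4 library still exceeded the highest Control library. Pdlim1, a cytoskeletal PDZ and LIM protein, had 3.99, 2.99 and 3.46 CPM in Control and 6.501, 6.94 and 6.58 CPM in K4 (log2 fold change 0.94 with SE 0.14, edgeR adjusted p = 0.00552). Calls of Slc9a3r2, Pdlim1, Rprm and Myl4 held without each library in turn in the fit without the offset, and in 6, 7, 7 and 5 of 9 refits with it. Nxph3, a secreted ligand of neurexins, was higher by 0.83 (95% interval 0.47 to 1.19), and lost its call without Control replicate 1, K4 replicate 1 or K4 replicate 2. Of abundant genes, Cdc37, a cochaperone that hands kinases to HSP90, had 101, 100.5 and 112 CPM in Control and 135, 139 and 128 CPM in K4 (log2 fold change 0.36 with SE 0.06, edgeR adjusted p = 0.00779). Numbl, an adaptor related to NUMB, rose by 0.42. The calls of Cdc37 and Numbl held without each library in the fit without the offset, and in 5 and 7 of 9 refits with it. Tuba1c and LOC100909441 also rose, by 0.27 each on nearly equal counts, so reads of these near-identical genes may be shared between them. Both lost the call without K4 replicate 1 or 2, and Tuba1c also without Control replicate 1.

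The largest falls were in Zbtb20, Galnt4 and Slc22a3. Slc22a3 (gene ID 29504), a low-affinity transporter of monoamines and organic cations, had 11.7, 8.53 and 10.1 CPM in Control and 5.02, 3.57 and 4.32 CPM in K4 (log2 fold change −1.23 with SE 0.19, edgeR adjusted p = 0.00552). Galnt4, which starts mucin-type O-glycosylation, had 3.05, 3.51 and 3.61 CPM in Control and 1.66, 1.37 and 1.18 CPM in K4 (log2 fold change −1.26 with SE 0.2, edgeR adjusted p = 0.00616). Both calls held without each library in turn in the fit without the offset. With it, Slc22a3 and Galnt4 were called in 7 and 8 of 9 refits. Zbtb20, a zinc finger repressor, had 13.9, 16.1 and 10.5 CPM in Control and 5.25, 4.52 and 3.82 CPM in K4 (log2 fold change −1.57 with SE 0.32, edgeR adjusted p = 0.0246), and was no longer called without Control replicate 1 or 2 or any 1 K4 library. Hmcn1, a long extracellular matrix protein with an implied transcript of 20.9 kb, fell by 0.94 on the log2 scale, and by 0.69 with the length offset. Slc1a2 (gene ID 29482), the main glutamate transporter of astrocytes, had 413, 572 and 382 CPM in Control and 252, 278 and 205 CPM in K4 (log2 fold change −0.89 with SE 0.17, edgeR adjusted p = 0.0186). Its call was lost without K4 replicate 1 or 3. Dok6, an adaptor of RET and Trk receptors, fell by 0.87 and Epb4.1l5, a membrane skeleton protein, by 1.19. Control replicate 2 was the highest library for Slc1a2, Zbtb20, Dok6 and Epb4.1l5. Groups without overlap were a condition for naming these 4 genes. The call of Dok6 was lost without K4 replicate 1 or 3, and that of Epb4.1l5 without Control replicate 1 or K4 replicate 3. Among abundant genes, Pank3, a pantothenate kinase of coenzyme A synthesis, had 164, 182 and 156 CPM in Control and 116, 122 and 119 CPM in K4 (log2 fold change −0.49 with SE 0.062, edgeR adjusted p = 0.00268). Arap2, Ccdc88a, Ptpn4 and Nufip2 fell by 0.48, 0.48, 0.43 and 0.43, each on transcripts over 8 kb, and with the length offset by 0.34, 0.30, 0.24 and 0.24. These 5 calls held without each library in the fit without the offset. With the offset, Pank3, Arap2, Ccdc88a, Ptpn4 and Nufip2 were called in 6, 6, 5, 2 and 2 of 9 refits.

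Of 19 clock genes, all tested, 10 were lower and 2 higher after K4, beside 3.8% and 2.27% of all genes, and 6 and 2 were called in both fits, beside 1.11% and 0.898%. The list's median log2 fold change was −0.31, and −0.21 with the length offset, beside −0.005 and 0.005 over all genes. The 10 lower genes were the feedback repressors Nr1d2, Cry1, Per2, Per3, Bhlhe41 and Ciart, with Dbp, Hlf, Rora and Rorb. The 2 higher genes were the activator Arntl and Nfil3. Per1, Cry2, Nr1d1 and Bhlhe40, relatives of the repressors that were lower, were not called. The hour of dissection was not given, and its part in the clock gene values was not tested. Nr1d2 (gene ID 259241), which encodes the repressor REV-ERB beta, had 152, 148 and 145 CPM in Control and 106, 105 and 105 CPM in K4 (log2 fold change −0.49 with SE 0.056, edgeR adjusted p = 0.00268). Dbp (gene ID 24309), an output transcription factor that binds D-boxes, had 165, 172 and 152 CPM in Control and 108, 105 and 118 CPM in K4 (log2 fold change −0.57 with SE 0.07, edgeR adjusted p = 0.00268). Bhlhe41, also called DEC2, which represses at E-boxes, had 73.2, 79.03 and 64.9 CPM in Control and 52.2, 51.1 and 55.3 CPM in K4 (log2 fold change −0.45 with SE 0.072, edgeR adjusted p = 0.00624). The 3 K4 values of each gene lay below all 3 Control values, and the calls held without each library in turn. Bhlhe41 was called in 7 of 9 refits with the offset.

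Cry1, a repressor of CLOCK and BMAL1, had 11.3, 16.1 and 14.2 CPM in Control and 8.88, 8.86 and 8.95 CPM in K4 (log2 fold change −0.64 with SE 0.13, edgeR adjusted p = 0.0145). Per3 and Per2, partners of the cryptochromes, fell by 0.45 and 0.44 on the log2 scale, Per2 only in the fit without the length offset. Ciart, a repressor also called CHRONO, had 22.1, 19.1 and 16.99 CPM in Control and 10.7, 15.6 and 13.3 CPM in K4 (log2 fold change −0.56 with SE 0.14, edgeR adjusted p = 0.0416). On the other side, Nfil3, which competes with Dbp for D-boxes, had 3.09, 3.85 and 3.76 CPM in Control and 5.88, 8.89 and 5.74 CPM in K4 (log2 fold change 0.94 with SE 0.18, edgeR adjusted p = 0.0140), with K4 replicate 2 the highest. Arntl, which encodes BMAL1, had 29.8, 27.8 and 29.6 CPM in Control and 35.5, 35.7 and 36.2 CPM in K4 (log2 fold change 0.30 with SE 0.06, edgeR adjusted p = 0.0156). The rise of Arntl was small but its K4 libraries differed by less than 1 CPM. Rora, Hlf and Rorb were lower, at −0.59, −0.31 and −0.44 without the length offset only (adjusted p with it 0.0571, 0.0856 and 0.118, edgeR). Clock, Npas2, Cry2, Per1, Nr1d1, Tef and Bhlhe40 were not called. Per1 had 83.8, 98.8 and 80.2 CPM in Control and 68.2, 111 and 60.8 CPM in K4, overlapping because of K4 replicate 2. The 12 calls became 6 without Control replicate 1, K4 replicate 1 or K4 replicate 3. Cry1 lost its call without any 1 K4 library and Arntl also without Control replicate 1. Ciart was lost without Control replicate 1, K4 replicate 1 or 3 or Ketamine replicate 2 or 3, and Per3 and Nfil3 without Control replicate 1. Per2 was lost without K4 replicate 1 or 3, and Hlf and Rorb without Control replicate 1 or any 1 K4 library.

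**Figure D4:**
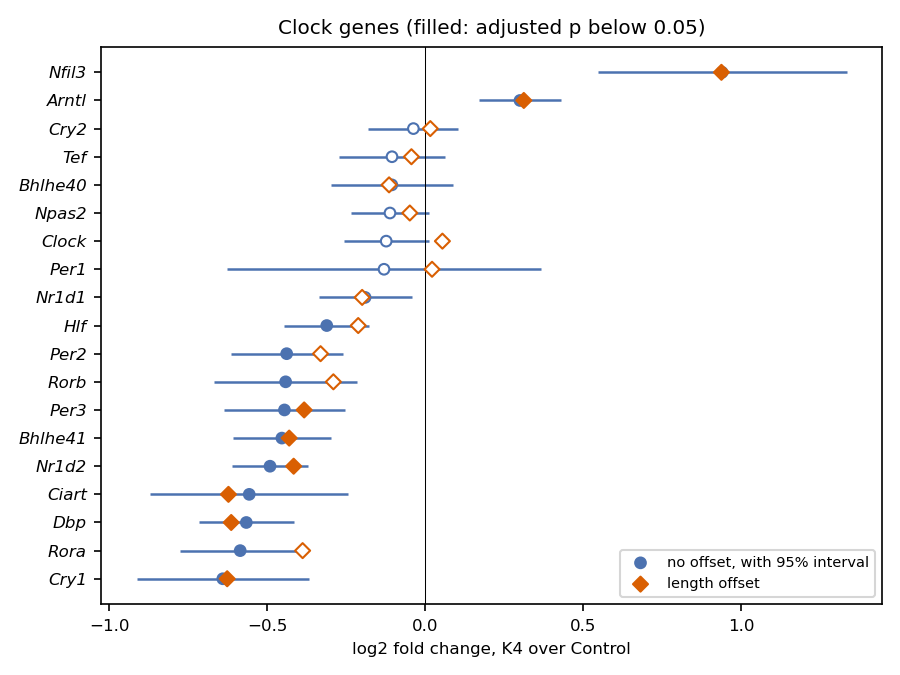
Log2 fold changes of K4 over Control for the 19 clock genes without the length offset (blue circles, with 95% intervals) and with it (orange diamonds); filled symbols had an edgeR adjusted p below 0.05. Nfil3 and Arntl lie above 0 at 0.94 and 0.30, and Cry1 lies lowest at −0.64.

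The promoters of 3 of these genes show the elements through which the loop is known to act: CLOCK and BMAL1 bind the E-box CACGTG, and ROR and REV-ERB proteins bind the element TAGGTCA. The windows are the bases just before the annotated start (RefSeq, GRCr8), with these elements in capitals: Arntl (chr1:176766208-176766327, plus strand), Bhlhe41 (chr4:180569356-180569475, minus strand) and Ciart (chr2:186112247-186112366, minus strand).
Arntl promoter: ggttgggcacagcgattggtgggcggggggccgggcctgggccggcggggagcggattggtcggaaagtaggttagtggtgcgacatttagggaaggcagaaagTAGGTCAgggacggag
Bhlhe41 promoter: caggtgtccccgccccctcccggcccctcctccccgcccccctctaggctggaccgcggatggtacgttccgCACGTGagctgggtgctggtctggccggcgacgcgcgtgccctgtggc
Ciart promoter: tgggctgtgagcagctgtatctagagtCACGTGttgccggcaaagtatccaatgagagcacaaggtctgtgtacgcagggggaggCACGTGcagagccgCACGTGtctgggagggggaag
The Arntl element ends 10 bases before the start. Bhlhe41 has 1 E-box and Ciart has 3. Searched on both strands over 250 bases before to 50 after the start, the E-box was in 4 of the 17 clock genes with a promoter sequence (23.5%) and in 8.95% of the 12814 tested genes with one. The element TAGGTCA was in 1 of the 17 and in 1.79% of all, and neither motif overlaps the other in its letters. Of the 12 called clock genes 10 had a promoter sequence. The E-box was in 2 of these 10 and TAGGTCA in 1, which are the genes shown. A match describes the letters only, and binding was not measured.

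Of 26 genes of cholesterol synthesis and its regulation, 6 were lower after K4, beside 3.8% of all genes, and none higher, and 5 of the 6 were called in both fits. The list's median log2 fold change was −0.11 (−0.15 with the length offset), and 11 members had K4 values below every Control value (14.2% of all genes did), with none above. In the order of the pathway, Hmgcs1 (gene ID 29637), which makes HMG-CoA, had 435, 453 and 418 CPM in Control and 326, 343 and 315 CPM in K4 (log2 fold change −0.41 with SE 0.062, edgeR adjusted p = 0.00552). Fdft1 and Sqle, which form and oxidise squalene, fell by 0.30 and 0.25 on the log2 scale, Fdft1 only without the offset. Cyp51 (gene ID 25427), which removes the C-14 methyl group of lanosterol, had 205, 244 and 188 CPM in Control and 149, 168 and 142 CPM in K4 (log2 fold change −0.47 with SE 0.091, edgeR adjusted p = 0.0145). Msmo1 (gene ID 140910), the next demethylase, had 138, 149 and 123 CPM in Control and 98.2, 109 and 94.9 CPM in K4 (log2 fold change −0.44 with SE 0.079, edgeR adjusted p = 0.0110). The groups did not overlap in any of these 5 genes, and Control replicate 2 was the highest library for Hmgcs1, Cyp51 and Msmo1.

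Insig1, an endoplasmic reticulum protein that retains the SREBP transcription factors and is itself their target, had 87.4, 81.6 and 80.9 CPM in Control and 65.04, 67.9 and 64.1 CPM in K4 (log2 fold change −0.34 with SE 0.065, edgeR adjusted p = 0.0132). Idi1, Sc5d and Dhcr7 were at −0.33, −0.23 and −0.20 without passing the test, which Idi1 passed without Control replicate 3. Srebf2, which encodes an SREBP factor, was at −0.12 (95% interval −0.25 to 0.02) and was not called. The 6 calls became 1 without Control replicate 1, K4 replicate 1 or K4 replicate 3, when only Hmgcs1 kept its call. Fdft1 was also lost without K4 replicate 2 or Ketamine replicate 2, and Sqle without these, Control replicate 3 or Ketamine replicate 3. Astrocytes make much of the cholesterol of the brain, and summed astrocyte markers overlapped, at 6480 to 10235 CPM in Control (highest in replicate 2) and 5842 to 6737 in K4. Their part in this result was not tested.

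Sterol gene promoters often carry a CCAAT box, bound by NF-Y, a partner of the SREBP factors. The 190 bases before the start of Msmo1 (chr16:29746923-29747112, plus strand, RefSeq, GRCr8) hold 3 copies of CCAAT, in capitals.
Msmo1 promoter: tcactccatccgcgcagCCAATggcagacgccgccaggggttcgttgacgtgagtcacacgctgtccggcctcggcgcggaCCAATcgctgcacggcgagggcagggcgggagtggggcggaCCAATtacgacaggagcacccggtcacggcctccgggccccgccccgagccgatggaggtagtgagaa
On either strand, CCAAT was in the 300-base windows of 16 of the 19 cholesterol genes with a sequence (84.2%) and of 37.1% of all tested genes with one. It was no more common in genes called in both fits, with 31.8% of those higher and 36.8% of those lower.

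Most activity-regulated genes had positive log2 fold changes and few passed the test. Of 30 tested 4 were higher, beside 2.27% of all genes (Egr3, Nptx1, Nptx2 and Trib1) and none lower, and 27 log2 fold changes were positive, with a median of 0.42 (0.41 with the length offset). Nptx2 (gene ID 288475), a secreted pentraxin that clusters AMPA receptors, had 26.5, 24.7 and 27.7 CPM in Control and 43.2, 53.6 and 46.9 CPM in K4 (log2 fold change 0.86 with SE 0.16, edgeR adjusted p = 0.0151). Egr3, a zinc finger transcription factor induced by synaptic activity, had 63.4, 69.1 and 80.3 CPM in Control and 109, 125 and 101 CPM in K4 (log2 fold change 0.65 with SE 0.11, edgeR adjusted p = 0.0117). Nptx1, the related pentraxin, had 256, 274 and 311 CPM in Control and 368, 434 and 350.3 CPM in K4 (log2 fold change 0.46 with SE 0.09, edgeR adjusted p = 0.0146). In all 3 the groups were separate. The fast immediate early genes were not called. Arc, a regulator of AMPA receptor trafficking, had 68.4, 66.7 and 27.4 CPM in Control and 110.0, 192 and 24.3 CPM in K4, and Fos had 9.04, 7.18 and 7.49 CPM in Control and 12.2, 25.3 and 4.83 CPM in K4. In both genes K4 replicate 2 was the highest library and K4 replicate 3 the lowest of all 6. The median of the list became 0.16 without K4 replicate 2 and 0.60 without K4 replicate 3. The 4 calls became 0 without Control replicate 1 and 2 without Control replicate 2 or K4 replicate 2. Egr3 was lost without Control replicate 1, Nptx1 without Control replicate 1 or K4 replicate 2, and Nptx2 without Control replicate 1 or 2 or K4 replicate 3. Trib1 stayed called only without Control replicate 3 or K4 replicate 3.

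Of 26 neuropeptides and secreted neuronal proteins, 4 were higher (2.27% of all genes were) and none lower, with a median log2 fold change of 0.26 (0.19 with the length offset). Groups were separate with K4 higher in 11 of the 26, beside 13.3% of all genes. Vgf (gene ID 29461), a secreted precursor of peptides induced by neurotrophins, had 74.2, 69.9 and 85.1 CPM in Control and 98.6, 119 and 96.8 CPM in K4 (log2 fold change 0.46 with SE 0.095, edgeR adjusted p = 0.0192). Pdyn, the precursor of dynorphins, had 17.9, 15.9 and 19.2 CPM in Control and 22.7, 24.5 and 22.9 CPM in K4 (log2 fold change 0.40 with SE 0.092, edgeR adjusted p = 0.0263). Every K4 library exceeded every Control library in both. The granins Scg2 and Chga, of dense-core vesicles, were higher by 0.38 and 0.29 without the length offset only. The 4 calls became 0 without Control replicate 1 or K4 replicate 2, 1 without K4 replicate 1 or 3, and 2 without Ketamine replicate 2 or 3. Vgf was lost without Control replicate 1 or K4 replicate 2, and Pdyn without Control replicate 1 or any 1 K4 library. Scg2 stayed called only without Control replicate 2 or 3, and Chga only without Control replicate 3.

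The Vgf promoter holds the 8-base cyclic AMP response element TGACGTCA, bound by CREB, here in capitals within the 120 bases before the start (chr12:25277021-25277140, minus strand, RefSeq, GRCr8).
Vgf promoter: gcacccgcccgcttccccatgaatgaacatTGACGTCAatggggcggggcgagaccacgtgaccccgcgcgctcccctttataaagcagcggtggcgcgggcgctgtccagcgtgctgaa
This element was in 6 of the 107 genes called higher in both fits that had a sequence (5.61%), in 3 of the 144 called lower (2.08%) and in 2.91% of all tested genes with one, on either strand.

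Among receptors and second messenger genes few were called. Besides Grm3, the group I receptor Grm5 had 175, 153 and 194 CPM in Control and 132, 132 and 141 CPM in K4 (log2 fold change −0.37 with SE 0.086, edgeR adjusted p = 0.0285), a call lost with the length offset and without Control replicate 1 or 3 or any 1 K4 library. The other 5 tested metabotropic receptors were not called. In the retinoid list Cyp26b1 was the only call among 21 genes, and 3 were called without K4 replicate 2, Aldh1a2 among them. The synthetic enzyme Aldh1a2, which is also a meningeal marker, had 13.9, 7.64 and 8.31 CPM in Control and 24.6, 5.99 and 20.6 CPM in K4, and the summed meningeal markers ranged from 127 to 216 CPM in Control and from 94.7 to 361 in K4. Their part in the Cyp26b1 result was not tested. Sorcs3 was the only call among 5 VPS10 receptors and Dohh the only one called in both fits among 18 hypusine and polyamine genes. Of 28 cyclic nucleotide genes 2 were higher, beside 2.27% of all genes: Ppp1r1b and Pde10a, by 0.45 and 0.39. Ppp1r1b encodes DARPP-32, a dopamine-regulated phosphatase inhibitor, and Pde10a a phosphodiesterase of striatal neurons. Both also mark striatal neurons, of whose 13 tested markers 3 were higher, the other being Rgs9 at 0.84. The other way, 8 of the 13 had negative values, down to −0.73, 2 of them without overlap, and the list median was −0.08 (0.01 with the length offset, and −0.17 to 0.03 with 1 library left out). Summed striatal markers overlapped, at 393 to 432 CPM in Control and 413 to 440 in K4. The calls of Ppp1r1b and Pde10a were lost without Control replicate 1 or K4 replicate 1 or 2, and that of Pde10a also without Control replicate 2, K4 replicate 3 or Ketamine replicate 2 or 3. Rgs9 stayed called only without Control replicate 2 or K4 replicate 3. The 3 striatal calls became 0 without Control replicate 1 or K4 replicate 1 or 2, and 1 without Ketamine replicate 2 or 3. Without Control replicate 3 the cyclic nucleotide calls numbered 5.

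Of 36 voltage-gated potassium channel genes edgeR called 0, and it called 7 without Control replicate 2 and 3 without Control replicate 3. DESeq2 called 4. In edgeR 12 of the 36 had an unadjusted p below 0.05, beside 4245 of all 18047 genes tested. Of 18 calcium channel genes Cacna2d1, the target of gabapentin, was lower without the length offset only (−0.30), and stayed called only without Control replicate 2 among the libraries left out. In the BMP and TGF-beta list 6 of 44 were lower, beside 3.8% of all genes, and only Bmpr2, a type II BMP receptor, was called in both fits. Bmpr2 had 360.2, 322 and 344 CPM in Control and 253, 226 and 267 CPM in K4 (log2 fold change −0.46 with SE 0.071, edgeR adjusted p = 0.00567), with no overlap, and its call held without each library in the fit without the offset but in 2 of 9 refits with it. The 6 became 1 without Control replicate 1 or any 1 K4 library, 3 without Ketamine replicate 1, 2 without Ketamine replicate 2 or 3, and 10 without Control replicate 3. Of 42 Wnt genes, Lgr4 and Fzd3, both receptors, fell by 0.34 and 0.55 and the secreted Dkk3 rose by 0.34 in both fits. Of 54 axon guidance genes 1 was lower in both fits, the netrin receptor Unc5d (−0.53). In the same list 2 were higher in both fits, among them the ephrin Efnb3 (0.28). Over all genes 1.11% were lower and 0.898% higher in both fits. The 5 named Wnt and axon guidance genes lost the call without Control replicate 1. Lgr4 also lost it without K4 replicate 1 or 3, Fzd3 without K4 replicate 2 or 3, Efnb3 without any 1 K4 library, and Dkk3 without any 1 K4 library or Ketamine replicate 2 or 3.

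**Figure D5:**
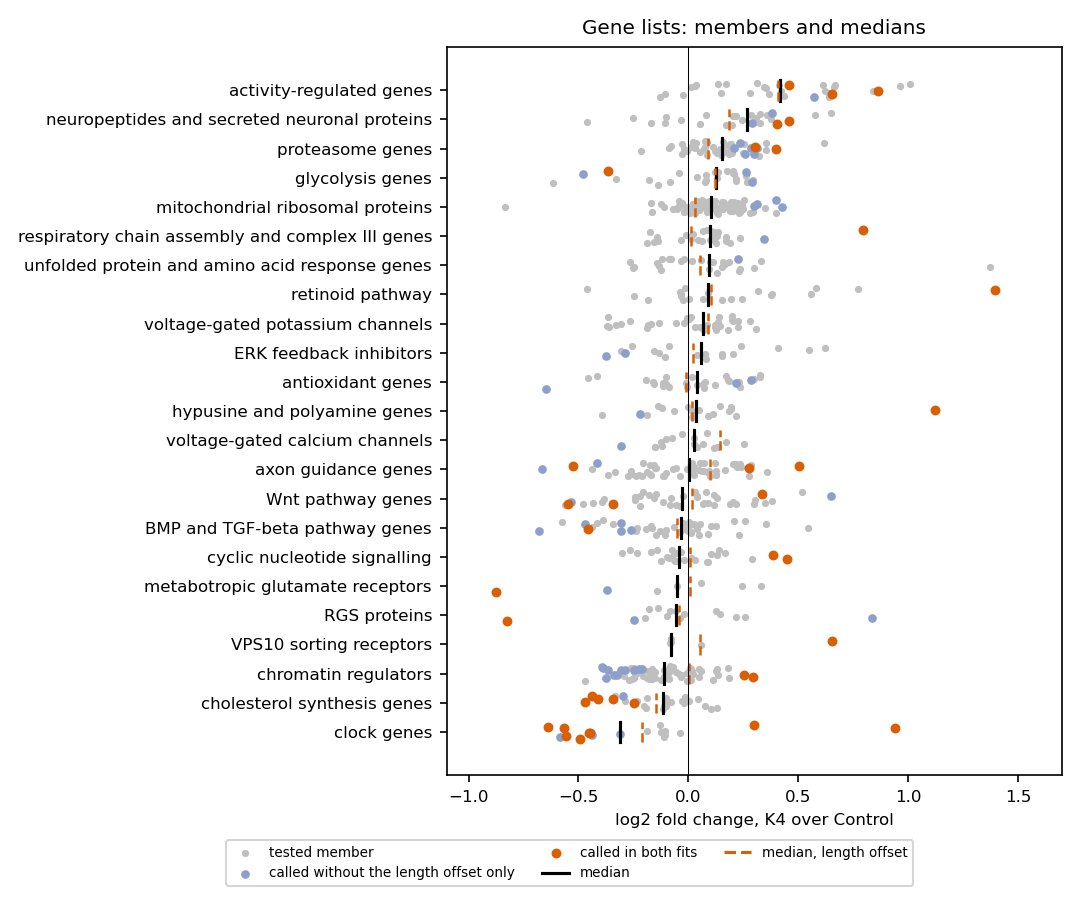
Log2 fold changes of K4 over Control for the tested members of 23 pathway lists, ordered by the list median (black bar; orange dashes, median with the length offset). Orange points were called in both fits and blue points only without the offset. Activity-regulated genes have the highest median, 0.42, and clock genes the lowest, −0.31, and the median of the chromatin list moves from −0.11 to 0.00 with the offset.

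In lists of mostly short or long genes the length offset changed the counts. Of 46 proteasome genes 8 were higher, beside 2.27% of all genes, and none lower (median log2 fold change 0.15), but with the length offset the median was 0.09 and only Psmb4, a core particle subunit, and Psmd3, of the regulatory particle, stayed called. Psmb4 had 51.5, 51.6 and 58.1 CPM in Control and 69.4, 75.4 and 67.4 CPM in K4 (log2 fold change 0.40 with SE 0.067, edgeR adjusted p = 0.00789), a call that held without each library in the fit without the offset but in 1 of 9 refits with it (adjusted p with it and all libraries 0.0496, edgeR), while that of Psmd3 was lost without Control replicate 1 or any 1 K4 library. The 8 became 3 without Control replicate 1, 2 without K4 replicate 1, 1 without K4 replicate 2 or 3, 4 without Ketamine replicate 2 and 5 without Ketamine replicate 3. Of 73 mitochondrial ribosomal protein genes 4 were higher, beside 2.27% of all genes, none of them in both fits, and the 4 became 0 without Control replicate 1 or K4 replicate 3, 2 without K4 replicate 1 and 1 without K4 replicate 2. Of 73 chromatin regulators 11 were lower and 2 higher (3.8% and 2.27% of all genes), with a median of −0.11. With the offset the median was 0.00 and none of the 11 stayed called, among them the acetyltransferase Crebbp (−0.34, transcript 10.99 kb) and the demethylase Kdm7a (−0.39, 10.2 kb). The histone deacetylase genes Hdac3 and Hdac11, which were higher, were called in both fits. Hdac3, the catalytic subunit of the NCoR complex, had 47.4, 45.9 and 47.8 CPM in Control and 58.6, 56.2 and 58.1 CPM in K4 (log2 fold change 0.29 with SE 0.056, edgeR adjusted p = 0.0132), a call lost without Control replicate 1 or K4 replicate 1 or 3. Hdac11 rose by 0.25, a call lost without Control replicate 1, any 1 K4 library or Ketamine replicate 3. The 13 calls became 2 without Control replicate 1, 0, 4 and 1 without K4 replicates 1, 2 and 3, and 8 and 6 without Ketamine replicates 2 and 3.

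Of 26 glycolysis genes 14 had every K4 value above every Control value, beside 13.3% of all genes. In edgeR 14 had an unadjusted p below 0.05, beside 4245 of all 18047 genes tested. Eno2 and Tpi1 were called higher (0.29 and 0.26), neither with the length offset. Gapdh, the glyceraldehyde phosphate dehydrogenase, had 1519, 1487 and 1592 CPM in Control and 1743, 1817 and 1779 CPM in K4 (adjusted p = 0.0698, edgeR), and was called without Control replicate 2 or 3. Pdk1, a kinase that shuts pyruvate dehydrogenase, fell in both fits, with 79.7, 80.98 and 72.1 CPM in Control and 55.5, 62.9 and 62.4 CPM in K4 (log2 fold change −0.36 with SE 0.067, edgeR adjusted p = 0.0117), a call lost without Control replicate 1 or K4 replicate 1. The monocarboxylate transporter Slc16a7 was lower, at −0.48 without the offset only. Eno2 stayed called only without Control replicate 2 or 3 and Tpi1 only without Control replicate 3, and Slc16a7 was lost without Control replicate 1 or 3, any 1 K4 library or Ketamine replicate 3. Glycolysis calls numbered 4 in all, and 0 without Control replicate 1 or K4 replicate 1, 1 without K4 replicate 2 or 3 or Ketamine replicate 3, 2 without Ketamine replicate 1 or 2, and 10 without Control replicate 3. Beside Cyc1, no other of 27 complex III and assembly genes was called in both fits. The 13 mitochondrially encoded protein genes, listed after their values were seen, had log2 fold changes of −0.87 to −0.40, and 6 were lower in both fits. ND6, a complex I subunit and the only one of these on the light strand, had 314, 419.9 and 244 CPM in Control and 179, 189 and 168 CPM in K4 (log2 fold change −0.87 with SE 0.16, edgeR adjusted p = 0.0192), and ND5 had 7045, 10017 and 5544 CPM in Control and 4407, 4558 and 4178 CPM in K4 (log2 fold change −0.78 with SE 0.17, edgeR adjusted p = 0.0248). Control replicate 2 was the highest library for both. Without it 6 of the 13 were called lower. Both calls were lost without Control replicate 1 or K4 replicate 1 or 3, that of ND5 also without K4 replicate 2.

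Called markers of deep cortical layers were mostly higher after K4 and those of upper layers lower. Of 20 deep-layer markers 5 were higher and 1 lower (2.27% and 3.8% of all genes), with Rprm and Hs3st4 called in both fits, and of 15 upper-layer markers 3 were lower and none higher, with Cux2 and Pou3f2 in both. Rprm (gene ID 680110) had 11.99, 8.501 and 13.7 CPM in Control and 23.96, 26.7 and 21.2 CPM in K4 (log2 fold change 1.07 with SE 0.16, edgeR adjusted p = 0.00624). Hs3st4, a heparan sulfate sulfotransferase of layer 6, had 18.8, 19.7 and 18.7 CPM in Control and 27.9, 34.8 and 25.6 CPM in K4 (log2 fold change 0.63 with SE 0.12, edgeR adjusted p = 0.0135). Both had K4 libraries above all Control libraries. Syt6, Pcp4 and Crym were higher by 0.95, 0.62 and 0.43 without the length offset only, and Sox5 was lower, at −0.31 in the same fit. Of other deep-layer markers, Fezf2 was at 0.23 and Ntsr1 at −0.70, neither called. The homeobox gene Cux2, of layers 2 to 4, had 175, 204 and 175 CPM in Control and 144, 122 and 136 CPM in K4 (log2 fold change −0.46 with SE 0.077, edgeR adjusted p = 0.00756), and the POU factor Pou3f2 fell by 0.46. Of the 20 deep-layer markers 13 had positive values and 7 negative. In 8 all K4 values lay above all Control values and in 4 below (13.3% and 14.2% of all genes). Of the 15 upper-layer markers 4 were positive and 11 negative, with 0 and 5 without overlap. Summed deep-layer markers were 626 to 743 CPM in Control and 750 to 844 in K4, and summed upper-layer markers 1348 to 1398 and 1208 to 1287, without overlap in either. Within the deep-layer sum, Crym alone had a mean of 151 CPM in Control and 202 in K4. The depth of dissection was not given, and its part in these values was not tested. The 6 deep-layer calls became 1 without Control replicate 1 and 3 without any 1 K4 library, and the list median of 0.19 became 0.11 without Control replicate 2 and 0.10 without K4 replicate 3. The 3 upper-layer calls became 1 without Control replicate 1 and 5 without Control replicate 3, and their list median of −0.15 became −0.07 without Control replicate 2. Hs3st4 and Pou3f2 were lost without Control replicate 1, and Crym without that or any 1 K4 library. Sox5 was lost without Control replicate 1 or K4 replicate 1 or 3, Syt6 without Control replicate 1 or K4 replicate 1 or 2, and Pcp4 stayed called only without K4 replicate 1 or Ketamine replicate 2.

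Called astrocyte and vascular markers were lower after K4. Over all genes tested 3.8% were called lower, and 1.11% in both fits. Of 18 astrocyte markers Slc1a2, Slc4a4 and Aqp4 were lower (median of the list −0.33, and −0.18 without Control replicate 2), only Slc1a2 in both fits. The summed astrocyte markers, given with the sterol genes, overlapped between the groups. Aqp4, the water channel of astrocyte endfeet, had 622, 815 and 518 CPM in Control and 466, 461 and 426 CPM in K4 (log2 fold change −0.53 with SE 0.13, edgeR adjusted p = 0.0420). Of 20 endothelial and mural markers Notch3, Rgs5 and Abcb1a were lower in both fits and Flt1 without the offset. Log2 fold changes were positive for 4 of the 20. The summed markers overlapped, at 530 to 769 CPM in Control and 472 to 553 in K4. Rgs5, a pericyte regulator of G protein signalling, had 33.3, 39.5 and 24.6 CPM in Control and 19.6, 19.9 and 15.4 CPM in K4 (log2 fold change −0.83 with SE 0.17, edgeR adjusted p = 0.0196), lowest in K4 replicate 3. Abcb1a, the drug efflux pump P-glycoprotein of the blood-brain barrier, had 63.7, 89.6 and 61.3 CPM in Control and 44.6, 46.4 and 43.8 CPM in K4 (log2 fold change −0.67 with SE 0.13, edgeR adjusted p = 0.0180). P2ry12, a purine receptor of microglia, was the only call of 17 microglia markers, a share near the 3.8% of all genes, and the interneuron list of 20 held only Erbb4, the neuregulin receptor, at −0.65. Of 12 oligodendrocyte precursor markers Sox6, Vcan and Ptprz1 were lower without the offset only (−0.67, −0.63 and −0.69). Of 18 markers of mature oligodendrocytes 14 had positive values (list median 0.15), and the tight junction gene Cldn11 was higher without the offset only, at 0.41, a call lost without Control replicate 1 or 3 or any 1 K4 library. Without Control replicate 3 the astrocyte calls were 9 and the vascular calls 8, and without Control replicate 2 both were 6. Without Control replicate 1 both were 1, without K4 replicate 1 they were 0 and 1, and without K4 replicate 3 both were 0. Aqp4 stayed called only without Control replicate 2 or 3, Rgs5 was lost without Control replicate 1 or K4 replicate 1 or 3, Abcb1a without K4 replicate 1 or 3, Notch3 without Control replicate 1 or K4 replicate 3, and Erbb4 without Control replicate 1 or any 1 K4 library. P2ry12 stayed called only without Control replicate 2 or 3. Slc4a4 was lost without Control replicate 1 or K4 replicate 1 or 3, and Flt1 without Control replicate 1, any 1 K4 library or Ketamine replicate 1 or 2. Sox6 held without each library, Vcan was lost without any 1 K4 library and Ptprz1 also without Control replicate 1. Interneuron calls numbered 4 without Control replicate 2 and 2 without Ketamine replicate 1 or 3, and microglia calls 2 and 4 without Control replicates 2 and 3.

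Against Ketamine, given by another route, K4 had no gene at an adjusted p below 0.05 (edgeR, 0 of 18047, 1648 at an unadjusted p below 0.05, smallest adjusted p 0.0778), none with the length offset, and 70 by DESeq2. No gene above can therefore be called particular to K4. Against Control, Ketamine itself had 3013 genes called (16.7%, edgeR). The Ketamine libraries had 10.6% to 11.8% mitochondrially encoded counts and length slopes of −0.066 to −0.018. Ketamine and K4 share the Control libraries, so their values are set side by side. The genes shown are examples, some with a large and some with a small difference between K4 and Ketamine. For Cyp26b1 Ketamine had 9.81, 8.05 and 8.22 CPM, and K4 minus Ketamine was 1.02 (95% interval 0.68 to 1.37, edgeR adjusted p = 0.0970). For Cdhr1, a photoreceptor cadherin also found in olfactory bulb, there were 13.1, 15.03 and 19.00 CPM in Control and 23.8, 27.1 and 21.9 CPM in K4, and 13.97, 13.2 and 13.3 CPM in Ketamine, a K4 minus Ketamine log2 difference of 0.85 (95% interval 0.57 to 1.12, edgeR adjusted p = 0.0818). Hs3st4 had 18.96, 15.4 and 20.5 CPM in Ketamine, a difference of 0.69 (95% interval 0.42 to 0.95, edgeR adjusted p = 0.157). These 3 tests missed the threshold. In Slc1a2, Rgs5 and Erbb4 Ketamine lay further from Control, at log2 −1.57, −1.47 and −1.23 against −0.89, −0.83 and −0.65 in K4. Their K4 minus Ketamine values were 0.68, 0.65 and 0.58, which also missed it (edgeR adjusted p = 0.331, 0.336 and 0.316). The call of Cdhr1 against Control was lost without Control replicate 1 or K4 replicate 1 or 2. For Sorcs3, Dohh and Nr1d2 the Ketamine libraries had 53.7, 55.9 and 48.4 CPM, 73.96, 74.5 and 84.1 CPM and 109.7, 103 and 115 CPM. The differences were −0.01 (95% interval −0.17 to 0.14, edgeR adjusted p = 0.971), 0.08 (95% interval −0.19 to 0.35, edgeR adjusted p = 0.888) and −0.05 (95% interval −0.17 to 0.07, edgeR adjusted p = 0.831), each with an interval that includes 0.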

How the data were processed

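Expression was measured by RNA sequencing of poly(A)-selected, strand-marked libraries from 9 samples, per the labels' protocols. The tools named by the submitters' processing notes, without role or order, are StringTie 2.1.3b, HISAT2 2.1.0, Trimmomatic and bcl2fastq 2.20.0, and the build is rn6. The authors deposited 1 table of raw counts, and per the file headers also FPKM and TPM per library. For the counting tool and its strand setting nothing was given in the sources used here, so genes with antisense, overlapping or near-identical partners are uncertain. The TPM values the authors deposited were not used.

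Tests on counts used edgeR 4.0.16 in R 4.3.3 (TMM scaling, filterByExpr with minimum count 10 and minimum total 15, robust quasi-likelihood F test, all 9 libraries in 1 fit, Benjamini-Hochberg adjustment). CPM values are scaled by the TMM factors. Implied transcript length is counts over FPKM and library total. The length offset is, for each library, a lowess curve (span 0.3) of log2 CPM deviations over log2 length. Depth limits precision, with totals of 28495399 to 42731004 counts in the 6 libraries and a biological coefficient of variation of 10.2%. The fit was tested on simulated counts.

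Named genes were, of those with mean log2 CPM no lower than 1, a call in both fits and no overlap, the 15 per direction with the largest fold change and the 8 per direction with a mean of at least 100 CPM and the smallest p. Without those conditions, the rule also took up to 4 members per list called without the offset (or the member with the smallest p) and all clock genes. The members and the 37 lists (923 of 932 entries matched) were chosen with earlier results of these data known. The genes called in all 18 refits, the mitochondrially encoded genes and further list members given with values were chosen after their values were seen. Promoters come from RefSeq (GRCr8). Alternatives were other scalings and filters, DESeq2 1.42.0, limma 3.58.1 on log2 FPKM, a replicate block, thinned counts and leaving out libraries. A few named genes are left unreported.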

Additional observations from a re-analysis of the deposited data

How the results depend on the processing

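The count of 1095 genes called (409 higher, 686 lower) stayed within 1.5 times with other scalings and count filters, thinned counts or mitochondrially encoded genes removed (954 to 1213). It was 430 with the length offset (217 higher, 213 lower), 1890 by DESeq2 (763, 1127), 452 in a fit of only the 6 K4 and Control libraries (144, 308), 718 by limma on FPKM with pseudocount 1 (503, 215), 713 with pseudocount 0.1 (505, 208) and 126 with no filter on FPKM (85, 41). The share called higher was 37.4% with TMM, 48.3% with upper quartile scaling, 50.5% with the offset and 70.1% on FPKM. Leaving out 1 library at a time gave 174 to 1548 called, 50 to 754 higher and 124 to 1007 lower, and 29 to 972 called in both fits; of genes called in both fits, 0 to 10 then also differed between K4 and Ketamine (0 with all libraries), the 10 without Ketamine replicate 1. The cause of these shifts was not tested. Of the named genes, 3 changed sign, none of them called with all libraries. Clock was at 0.0547 with the offset and 0.0552 with the offset and block. Cry2 was at 0.0163 with the offset, 0.0156 with the offset and block, 0.0138, 0.0142 and 0.0138 on FPKM at pseudocount 1, at 0.1 and without a filter, and −0.101 to 0.00982 with 1 library left out. Per1 was at 0.0218 with the offset and −0.439 to 0.0319 with 1 library left out. Whether replicate numbers pair the samples could not be told from 3 libraries a group. Same-numbered K4 and Control libraries had correlations of their deviations of 0.106, 0.0887 and 0.0024. The Control library with the highest correlation was the same-numbered one for K4 replicates 1 and 2, and Control replicate 1 for K4 replicate 3. With a replicate block 1168 genes were called (429 higher, 739 lower), and with the block and the length offset 497 (220, 277). Depth limits small and low-count differences, so a gene that missed the threshold was not shown to be equal.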
